A study of Mus musculus with 31 samples.

Results

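The libraries described here are the 7 CD11b+ microglia libraries of female A-/wt/wt mice, out of 31 RNA-seq libraries in the series. These mice were 13 months old, on a C57Bl/6J background, carried no APP/PS1 transgene and had the unedited *Plcg2* gene on both chromosomes, so that by the labels no treatment or genotype separated the 7 libraries. Mouse number 236 is also given to a cortex library labelled A+/wt/wt, which cannot be the same animal, and both labels were used as given. Each library was given a neuron score, which was the mean log2 CPM (CPM being counts as a share of the library total, scaled by the trimmed mean of M-values, TMM) of *Snap25*, *Syt1*, *Stmn2*, *Rbfox3*, *Nefl*, *Slc17a7*, *Gad1* and *Camk2a*. The libraries were chosen by their label and ordered by the measured values of these 8 genes. Each of 16603 tested genes, of 55401 in the count table, was then described by its slope on this score, which is the change in log2 CPM for each unit of score. The 8 score genes were left out of all counts, which leaves 16595 genes.

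The study asked how the PLCγ2-P522R knock-in (ki/ki) changes microglia in mice with or without the APP/PS1 transgene. That transgene carries human and chimeric genes driven by the mouse prion protein promoter. Adult microglia were taken from dissociated whole brain with magnetic beads against CD11b, and polyadenylated RNA of each mouse was sequenced. Libraries that the score rule did not use served for comparison: 8 CD11b+ libraries of female APP/PS1 mice (4 A+/wt/wt and 4 A+/ki/ki), 7 of male mice without the transgene (3 A-/wt/wt and 4 A-/ki/ki), and temporo-occipital cortex of female A+/wt/wt (n = 4) and A-/wt/wt (n = 1) mice, all at 13 months. All 7 A-/wt/wt columns carry 1 batch tag in the count table, the APP/PS1 columns carry another and the male columns yet another, so that tag and transgene, or tag and sex, cannot be told apart.

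Microglia are the resident macrophages of the brain, and CD11b, encoded by *Itgam*, is carried by microglia and by other myeloid cells. Beads capture whatever is bound to a CD11b+ cell or is carried along with it, so that fragments of neurons, myelin or vessels can enter a preparation. Neurons keep part of their messenger RNA and many mitochondria in axons, dendrites and synapses, away from the nucleus and the cell body.

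The libraries held 19547100 to 21635100 counts each (median 20955300), and no pair was alike within counting noise. Mouse 245 stood apart. It had 18259 genes detected against 23279 to 23722 in the other 6 libraries, only 1284 genes at 1 to 9 counts against 6814 to 7881, and 871 tested genes at 0 against 9 to 42. Of these, 92 averaged at least 2 CPM in the other libraries, and no other library had such a gene. How this column came to differ is not given in the sources used here, so that a 0 in mouse 245 is not read as a missing transcript. It was also set apart on the second principal component, which held 20.4% of the variance (-62.1 against -36.6 to 45.4). Mouse 236 had 0.0955% of its counts from hemoglobin genes against at most 0.00502% elsewhere. Mouse 223, the highest on the score, lay farthest from the line drawn through the other 6 libraries, with a median absolute deviation of 0.55 log2 units over genes against 0.19 to 0.30 for the others. That line had to be extended beyond the scores of the other 6 to reach mouse 223, which by itself widens a deviation. The count column of mouse 223 also has the letter c after the mouse number, which no other A-/wt/wt column has. What this letter stands for is not given in the sources used here. Many results that rest on mouse 245, 236 or 223 are given with and without that library.

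The neuron score was 4.17 in mouse 242, 4.34 in mouse 245, 5.12 in mouse 243, 5.26 in mouse 225, 5.69 in mouse 224, 6.48 in mouse 236 and 7.45 in mouse 223 (SD 1.16, n = 7). The range of 3.28 log2 units is a 9.73-fold difference between mice of the same label. The score genes chose this order, and their values are a description. *Camk2a*, a kinase of excitatory synapses, ran from 210 to 2811 CPM. *Syt1*, the calcium sensor of synaptic vesicles, ran from 5.80 to 106 CPM (18.3-fold), and *Stmn2*, a growth cone protein, from 24.0 to 82.6 CPM (3.44-fold). Against the A-/wt/wt cortex library, the median score gene was at 2.31% of the cortex level in mouse 242 and at 17.5% in mouse 223. In bulk RNA, more neuronal material and more RNA per neuronal fragment cannot be told apart.

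Microglial genes were far above the cortex level in every library, which shows enrichment and not purity. The median endothelial marker was above the cortex level in every library too, at 327% to 921%. *Csf1r*, the receptor that microglia need to survive, was between 3545 and 6543 CPM, and the median homeostatic microglia gene was at least 2149% of the cortex level.

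Of the 16595 genes, 2636 rose with the score (15.9%) and 1500 fell (9.04%) in edgeR's quasi-likelihood test at a false discovery rate of 0.05, in sum 24.9%. The score was measured in the same libraries, so that these counts describe the gradient and do not test it. The median slope of all genes was -0.02. Rising genes had the steeper slopes, with a median of 0.67 against -0.29 for falling genes, and 543 genes had a slope of 1 or more. Rising genes made up 63.7% of the called genes after TMM scaling, 70.8% with the size factors of DESeq2 and 98.8% when libraries were scaled on 1631 genes at least 3 log2 units higher in CD11b+ than in cortex libraries. This microglial scaling moved the median slope of all genes to 0.22. All 2636 rising calls remained under it, but only 83 falling calls did, so that a fall is a fall relative to the bulk of genes.

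Which genes rise was then read against a measure from other libraries, the log2 ratio of cortex over CD11b+ in A+/wt/wt mice. Here 7447 of 18541 genes (40.2%) were higher in cortex and 6996 (37.7%) in CD11b+ libraries by edgeR at a false discovery rate of 0.05. Of 2630 rising genes with a ratio, 83.2% had a higher level in cortex, with a median of 1.70 log2 units. Of 1476 falling genes, 94.5% had a higher level in CD11b+ libraries (median -1.84), and of the genes not called 43.9% were higher in cortex. The median slope went from -0.26 for the 780 genes 4 to 6 log2 units higher in CD11b+, through 0.02 for genes up to 1 unit higher in cortex, to 0.93 for the 413 genes 4 to 6 units higher in cortex. In this last class 74.3% of genes rose. The genes most particular to CD11b+ libraries, over 6 log2 units, had a median slope of -0.12 (n = 65), nearer to 0 than the class before them.

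**Figure D1:**
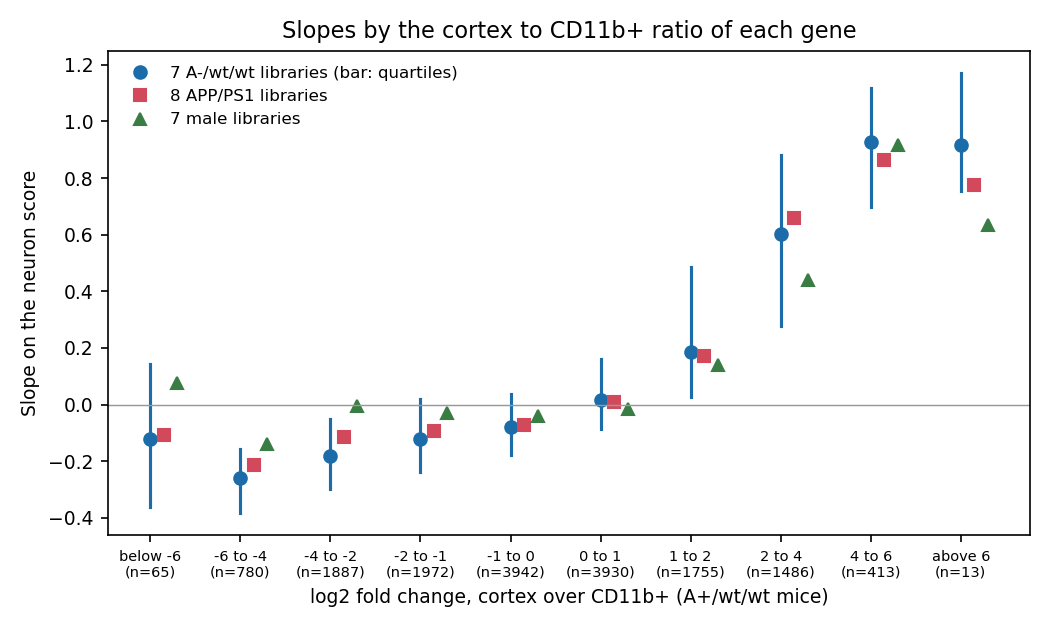
Median slope on the neuron score (log2 CPM per unit of score, y axis) by class of the log2 ratio of cortex over CD11b+ libraries (x axis). In the A-/wt/wt libraries the medians lie below 0 for genes higher in CD11b+ libraries and reach 0.93 for genes 4 to 6 log2 units higher in cortex. Medians of the APP/PS1 and male libraries are drawn beside them, and the male median in the class below -6 is 0.08.

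Genes of neurons in general rose throughout. All 18 tested pan-neuronal genes rose, with a median slope of 0.91 against -0.02 for all genes, and leaving out any 1 library kept this median between 0.85 and 0.96. *Ndrg4*, a neuronal protein of the NDRG family, was at 14.4, 16.0, 27.5, 35.9, 53.0, 91.5 and 171 CPM from mouse 242 to mouse 223 in order of score (slope 1.12 ± 0.06 SE, edgeR adjusted p = 2.56e-06). Its level rose at every step of the order.

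Markers of several kinds of neurons rose together. Excitatory markers rose in 10 of 10 tested genes (median slope 1.10) and inhibitory markers in 9 of 10 (1.04). Without mouse 223, 7 excitatory and 7 inhibitory markers rose, with medians of 1.13 and 1.11. *Cck*, a neuropeptide of cortical cells, went from 2.61 CPM in mouse 242 to 51.3 CPM in mouse 223 (slope 1.34 ± 0.12). *Sst*, the somatostatin gene of an interneuron class, was lowest at 0.645 CPM in mouse 245 and highest at 23.9 CPM in mouse 223 (1.39 ± 0.22). *Pvalb*, which marks fast-spiking interneurons, peaked at 38.0 CPM in mouse 236 and not in mouse 223, where it was 25.2 CPM (1.08 ± 0.17).

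Region markers rose as well, but less evenly. Of the cerebellar markers 11 of 12 rose (median slope 0.76), of the hippocampal markers 5 of 7 (1.02), of the striatal markers 5 of 10 (0.71), and of the thalamic and hypothalamic markers 3 of 9 (0.50), with 1 falling. Without mouse 242 the cerebellar count was 7, without mouse 223 the hippocampal and striatal counts were 3 each, and the thalamic and hypothalamic count was 6 without mouse 245 and 2 without any 1 of the others. *Zic1*, a transcription factor of cerebellar granule cells and meninges, rose from 27.4 to 57.3 CPM (slope 0.37 ± 0.06). *Ppp1r1b*, which encodes the striatal phosphoprotein DARPP-32, rose from 10.6 CPM in mouse 242 to 44.4 CPM in mouse 223 and 50.5 CPM in mouse 236. *Adora2a*, an adenosine receptor of striatal cells, stayed between 4.96 and 6.69 CPM (slope 0.06 ± 0.09, edgeR adjusted p = 0.677). *Prkcd*, a kinase listed as a thalamic marker, was the member that fell, from 413 to 179 CPM (slope -0.36 ± 0.06). Its log2 ratio of cortex over CD11b+ was -4.36. The median cerebellar marker stood at 19.5% of the cortex level in mouse 242, 7.80% in mouse 245, where *Car8* of this list is at 0, and 91.4% in mouse 223, and the cerebellum was not part of the cortex tissue behind this share.

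Most members of each class of neuronal gene products rose. Synaptic vesicle proteins rose in 15 of 18 genes (median slope 0.81), active zone and exocytosis proteins in 18 of 19 (0.90), postsynaptic density proteins in 18 of 19 (0.86, with 11 rising without mouse 223), neurofilaments and axonal cytoskeleton in 17 of 18 (0.91) and messenger RNAs known from dendrites in 13 of 15 (0.92). Without mouse 223 the medians were 0.83 for vesicle, 0.67 for active zone and 0.73 for postsynaptic genes. Differences between the classes were not tested. *Cplx2*, a clamp of vesicle release, went from 74.4 to 842 CPM (slope 1.07 ± 0.06). *Dlg4*, the scaffold PSD-95 of the postsynaptic density, went from 74.5 to 592 CPM (0.90 ± 0.06). *Vamp2*, the vesicle fusion protein, rose less steeply, from 128 to 448 CPM (0.57 ± 0.06).

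*Arc*, an immediate early gene whose messenger RNA travels into dendrites, had one of the tightest relations (chromosome 15, 74669083 to 74672570, minus strand, GRCm38). Its level was 5.78, 7.45, 20.2, 19.1, 29.4, 66.2 and 153 CPM in the order of the score (slope 1.42 ± 0.06, edgeR adjusted p = 2.53e-06). *Bc1*, a short noncoding RNA of dendrites (chromosome 7, 144914470 to 144914637, plus strand), was 17.1, 52.4, 26.6, 117, 189, 315 and 765 CPM (1.49 ± 0.20). Both had their highest value in mouse 223. *Arc* was counted among the dendritic RNAs. Of 20 other immediate early genes none rose or fell, with a median slope of 0.04, and without mouse 223, 3 rose. *Fos* was highest in mouse 224, at 2147 CPM, and lowest in mouse 242, at 619 CPM (0.23 ± 0.20, edgeR adjusted p = 0.43, and 0.60 with 0.0474 without mouse 223).

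**Figure D2:**
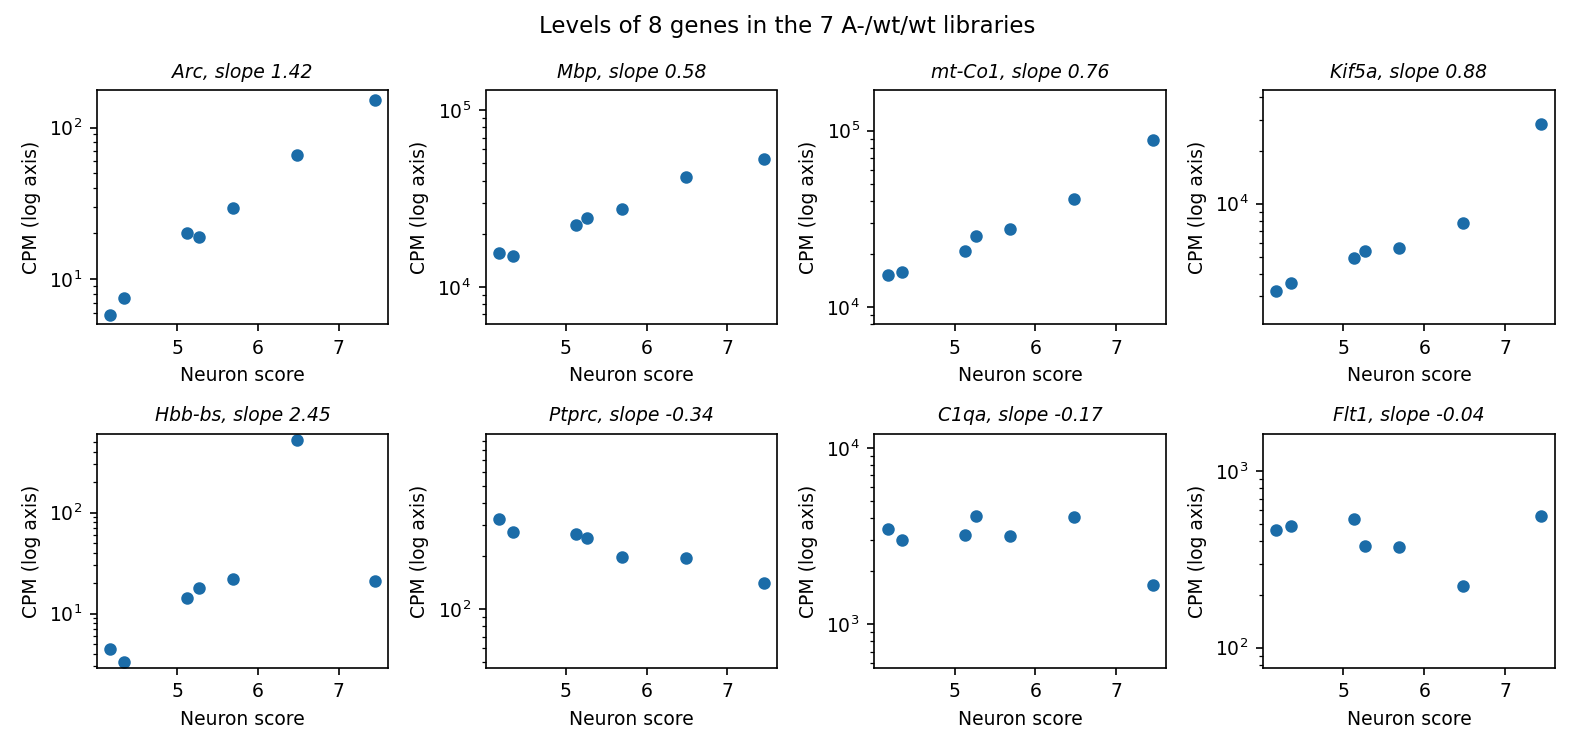
CPM on a log axis (y) against the neuron score (x) for *Arc*, *Mbp*, *mt-Co1*, *Kif5a*, *Hbb-bs*, *Ptprc*, *C1qa* and *Flt1*, with 1 point for each of the 7 A-/wt/wt libraries. *Arc* climbs from 5.78 to 153 CPM, *Hbb-bs* stands apart in mouse 236 at 520 CPM, and *Flt1* lies between 223 and 559 CPM without an order.

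Motor proteins of axonal transport were among the most abundant rising genes. *Kif5a*, a kinesin heavy chain of neurons (chromosome 10, 127225696 to 127263348, minus strand), was 3207, 3572, 4903, 5385, 5631, 7789 and 28282 CPM (slope 0.88 ± 0.10). The last value stands far above the others, and without mouse 223 the slope was 0.54 (edgeR adjusted p = 0.000548). *Kif5c* went from 416 to 4193 CPM (0.95 ± 0.07) and *Kif1a*, a carrier of synaptic vesicle precursors, from 379 to 3729 CPM (0.90 ± 0.10, and 0.55 without mouse 223). *Kif5a* was nonetheless higher in CD11b+ than in cortex libraries, with a log2 ratio of -1.84, as was *Kif5c* with -0.98. *Rapgef4*, an exchange factor for Rap proteins chosen after its values were seen, had the same features, with 445 to 4509 CPM, a slope of 0.97 ± 0.07 and a ratio of -1.55. In all, 317 of 2630 rising genes with a ratio were called higher in CD11b+ than in cortex libraries. Among falling genes 1283 of 1476 were so called, and among genes not called on the score 5240 of 12137. Of the 317 genes, 98 were higher by at least 2 log2 units, and 32 are genes of the mitochondrial DNA.

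Myelin RNA was a large part of every library. *Mbp*, the myelin basic protein gene (chromosome 18, 82475146 to 82585637, plus strand), was 15486, 14919, 22357, 24382, 27725, 41949 and 53177 CPM (slope 0.58 ± 0.07, edgeR adjusted p = 0.000334). *Mobp*, another myelin protein, went from 5582 CPM in mouse 245 to 18232 CPM in mouse 223 (0.53 ± 0.07). Both were higher in CD11b+ than in cortex libraries, with log2 ratios of -3.98 and -4.35. Of the oligodendrocyte markers, 14 of 15 rose, with a median slope of 0.75. *Trf*, the transferrin gene, which oligodendrocytes also make, was the exception by its values, at 1108 to 1831 CPM with a slope of -0.13 ± 0.08 (edgeR adjusted p = 0.286). The median oligodendrocyte marker was at 39.7% of the cortex level in mouse 242 and 91.7% in mouse 223.

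Astrocyte markers rose in 17 of 17 genes (median slope 0.69), and in 16 or 17 when any 1 library was left out. *Slc1a2*, the main glutamate transporter of astrocytes, was 219, 328, 490, 433, 435, 697 and 1377 CPM (slope 0.69 ± 0.08). *Sparcl1*, a secreted synapse-forming protein, rose at every step from 473 to 1487 CPM (0.51 ± 0.07). *Mt3*, a metallothionein, was highest in mouse 236, at 209 CPM, with 138 CPM in mouse 223. Of the oligodendrocyte precursor markers 8 of 12 rose (0.81), and 5 without mouse 223, among them *Ptprz1*, a receptor phosphatase, from 22.1 to 160 CPM. *Tnr*, a matrix protein of perineuronal nets, was 7.08 CPM in mouse 236 and 33.5 CPM in mouse 223 (1.08 ± 0.14, and 0.65 without mouse 223). *Cspg4*, which pericytes also carry, had a slope of -0.28 ± 0.12 that did not pass (edgeR adjusted p = 0.11). Without mouse 223 it fell (-0.60, edgeR adjusted p = 0.00718).

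Vessels and the choroid plexus gave few calls. No endothelial marker of 14 (median slope -0.03), no mural marker of 12 (-0.14) and no choroid plexus marker of 11 (0.12) rose or fell, and of 10 fibroblast and meningeal markers 1 rose, which was *Ptgds*, a prostaglandin synthase also made by oligodendrocytes (0.47 ± 0.07, from 97.8 to 263 CPM). Without mouse 245, 2 choroid plexus markers rose (median 0.28), and without mouse 242 that median was -0.025. Without mouse 223, 2 fibroblast markers rose and 2 fell. *Flt1*, a receptor for vascular growth factor, was 467, 491, 536, 379, 373, 223 and 559 CPM (slope -0.04 ± 0.12, edgeR adjusted p = 0.838). It was lowest in mouse 236 and highest in mouse 223. Without mouse 223 the slope was -0.44 (edgeR adjusted p = 0.0189), and 4 endothelial and 3 mural markers then fell. *Ttr*, the transthyretin of the choroid plexus, ran from 627 CPM in mouse 242 to 2762 CPM in mouse 236 and was 1387 CPM in mouse 223 (0.31 ± 0.20). The median endothelial marker was above the cortex level in every library, at 327% in mouse 236 and 611% to 921% elsewhere.

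**Figure D3:**
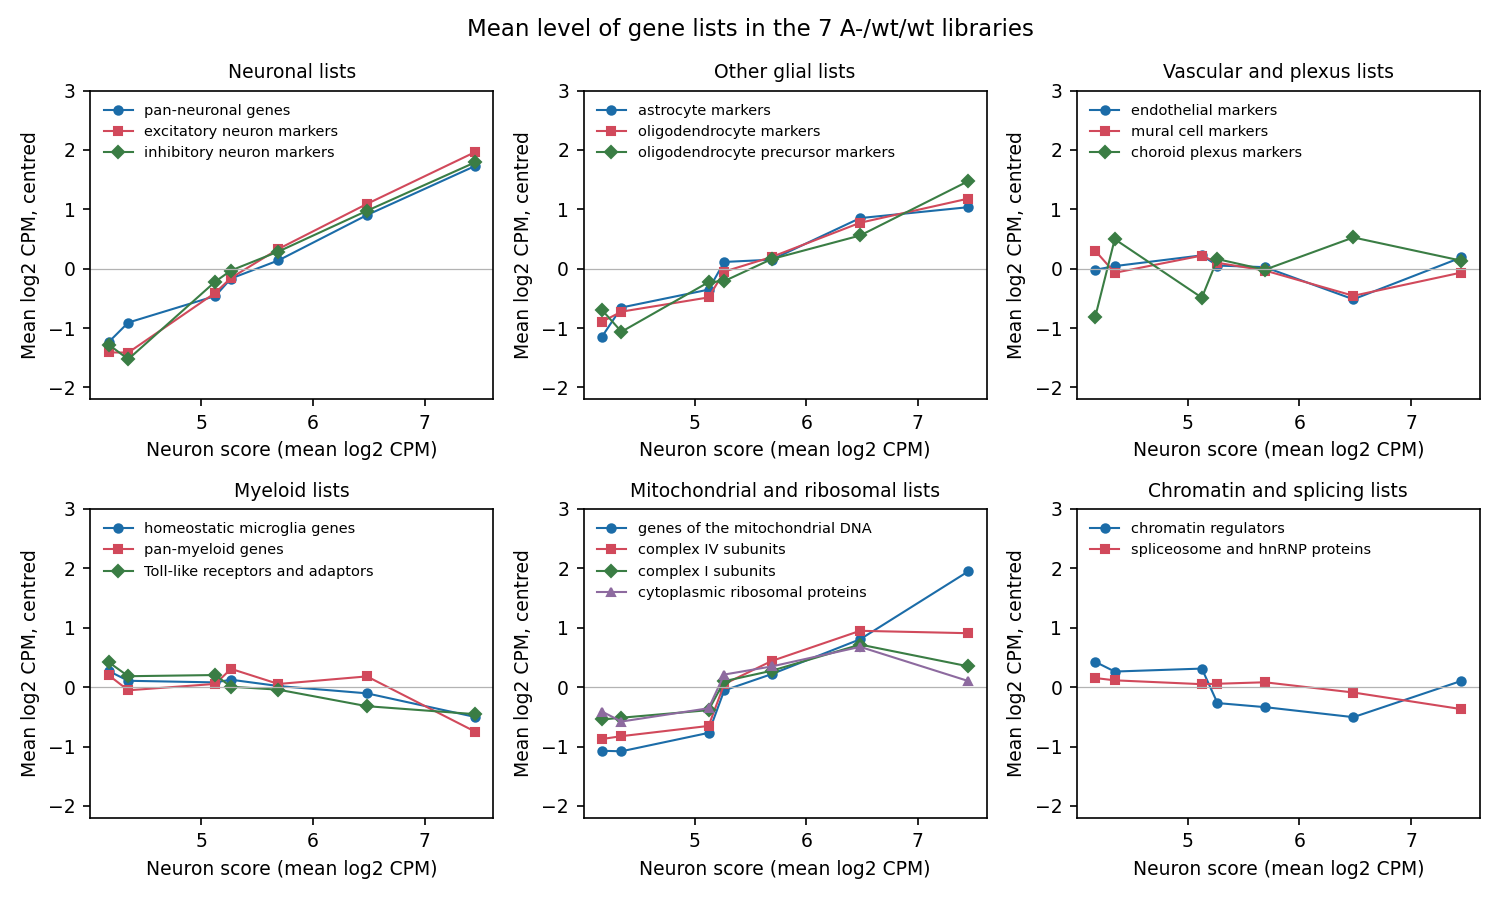
Mean log2 CPM of gene lists, centred on each list's mean over the 7 libraries (y axis), against the neuron score (x axis), in 6 panels. Neuronal lists climb from mouse 245 to mouse 223, endothelial markers do not (7.27 to 8.01 mean log2 CPM before centring), and pan-myeloid genes drop mainly in mouse 223 (8.60 against 9.29 to 9.65).

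Blood RNA was highest in 1 mouse. The hemoglobin genes had the steepest slopes among genes averaging 5 CPM or more, 2.69 for *Hba-a2*, 2.58 for *Hbb-bt*, 2.45 for *Hbb-bs* and 2.34 for *Hba-a1*. *Hbb-bs* was 4.44, 3.34, 14.3, 18.0, 22.2, 520 and 21.2 CPM, with mouse 236 far above the rest. Without mouse 236 the slopes were 0.93, 0.84, 0.76 and 0.69 and none of the 4 passed (edgeR adjusted p = 0.0831, 0.304, 0.0626 and 0.0873). They did not pass without mouse 242 or mouse 245 either, where *Hbb-bs* had edgeR adjusted p = 0.0692 and 0.061, and *Hbb-bt* and *Hba-a1* also missed without mouse 243 (0.0589 and 0.0504). Reads of these near-identical copies may be split by the counting. *S100a9*, a neutrophil protein, was likewise highest in mouse 236, at 175 CPM against 22.4 to 80.9 CPM (slope 0.31 ± 0.35), and no neutrophil marker of 11 was called.

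The genes of the microglia themselves had shallower slopes than neuronal genes. As a share of all counts, the median homeostatic gene went from 5682% of the cortex level in mouse 242 to 2149% in mouse 223. Homeostatic microglia genes had negative slopes in all 16 cases and 7 of them fell, with a median slope of -0.21, and -0.087 without mouse 223. *Csf1r* was 6543, 5417, 5872, 5615, 5366, 4497 and 3545 CPM (slope -0.23 ± 0.07, edgeR adjusted p = 0.0375). Its call was lost without mice 223, 225, 236, 242 or 243 (edgeR adjusted p of up to 0.124). *Sall1*, the transcription factor that marks microglia among macrophages, went from 599 to 342 CPM (-0.27 ± 0.06) and *Sall3*, its relative, from 104 to 50.9 CPM (-0.35 ± 0.06). Without mouse 242, 1 homeostatic gene fell, without mouse 225, 3 did, and without mouse 223 or mouse 243, 4 did.

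Of the pan-myeloid genes 3 of 18 fell, beside 9.04% of all genes. Their median slope was -0.16 and turned to 0.08 without mouse 223, when 1 gene fell. *Ptprc*, which encodes the leukocyte protein CD45, was 324, 276, 268, 252, 198, 194 and 141 CPM (-0.34 ± 0.06, edgeR adjusted p = 0.00204) and fell at every step. *C1qa*, a complement subunit, was 1659 CPM in mouse 223 and 3004 to 4089 CPM elsewhere without an order (-0.17 ± 0.13, edgeR adjusted p = 0.368). *Itgam*, the gene of the protein the beads bind, had a slope of -0.12 (edgeR adjusted p = 0.363), and 0.07 without mouse 223. *Plcg2*, the gene the study edited, was 234, 199, 204, 185, 147, 158 and 128 CPM (-0.24 ± 0.06, edgeR adjusted p = 0.0136), and without mouse 242 it did not pass (0.0623). With the microglial scaling the slopes of *Csf1r*, *C1qa*, *Itgam* and *Plcg2* were 0.02, 0.07, 0.13 and 0.01, against the median of 0.22 over all genes.

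Signalling genes of microglia fell in part. Of the Toll-like receptors and adaptors 7 of 16 fell (median slope -0.22) and of the MEF2 and lineage transcription factors 7 of 14 (-0.21), and of the phosphoinositide 3-kinase subunits 5 of 13 fell and 1 rose (-0.15). Without mouse 242 these falling counts were 1, 3 and 4. Without mouse 236, 3 Toll-like receptor genes fell, and without mouse 223, 8 phosphoinositide 3-kinase genes did. *Tlr8*, a sensor of single-stranded RNA, was 8.48 to 9.99 CPM in the 3 lowest libraries of the score and 1.91 to 3.08 CPM in the other 4 (-0.64 ± 0.18, edgeR adjusted p = 0.0291, and 0.0653, 0.0802 and 0.0657 without mice 236, 242 and 245). *Tlr2*, a sensor of bacterial lipoproteins, was 59.0 CPM in mouse 223 and 102 to 131 CPM elsewhere (-0.24 ± 0.09, edgeR adjusted p = 0.0889, and 0.0432 without mouse 245). *F13a1*, a marker of border macrophages, went from 105 to 53.3 CPM (-0.28 ± 0.07, edgeR adjusted p = 0.0149, and 0.0966 without mouse 223). Of the disease-associated microglia genes 1 of 18 rose and 1 fell (median slope -0.17), beside 15.9% and 9.04% of all genes. Without mouse 223, 2 rose and the median turned to 0.079, and without mice 236 and 245, 4 and 3 fell. *Apoe*, the lipoprotein of that list, was 2436 to 4460 CPM (0.03 ± 0.10, and 0.26 with edgeR adjusted p = 0.0237 without mouse 223). *Spp1*, osteopontin, was 13.2 CPM in mouse 223 and 32.2 to 68.9 CPM elsewhere (-0.36 ± 0.18, and -0.59 with edgeR adjusted p = 0.0137 without mouse 236). Of the 10 steepest falls among genes averaging 5 CPM or more, 6 were predicted genes, led by *Gm10521* (-0.83). The other 4 were the histone genes *H2bc8*, from 17.5 to 2.09 CPM, and *H1f3*, from 34.4 to 3.40 CPM, and the myeloid receptor genes *Cd300lf* and *Lilrb4a*, the last from 40.9 to 9.81 CPM.

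**Figure D4:**
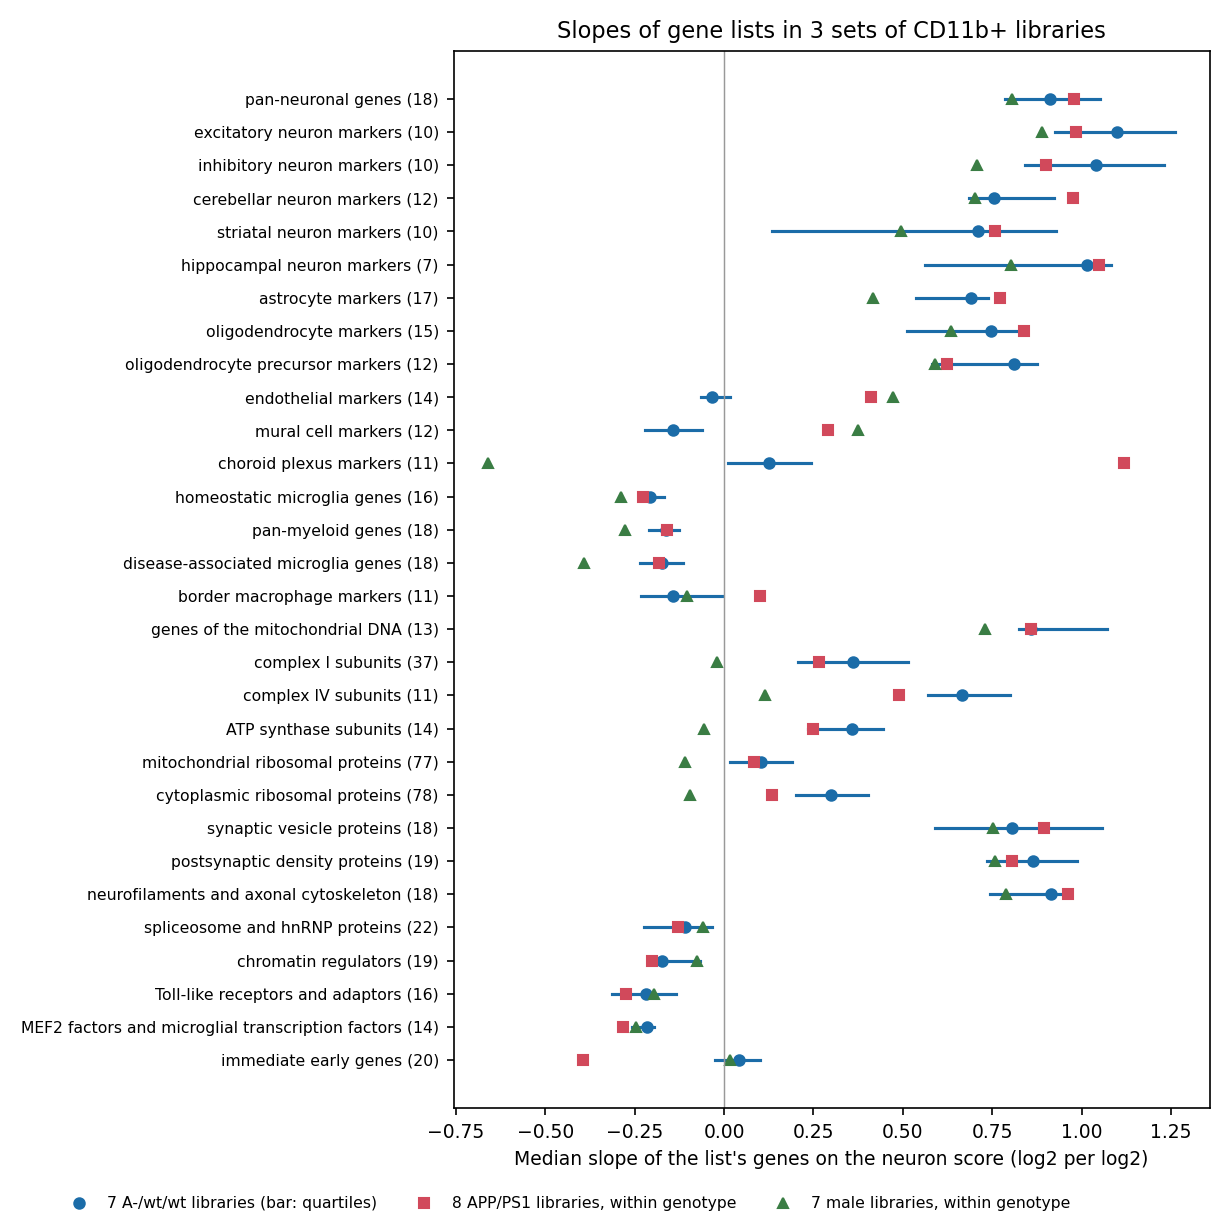
Median slope on the neuron score (x axis, log2 CPM per unit of score) of 30 gene lists (y axis) in the 7 A-/wt/wt, 8 APP/PS1 and 7 male libraries, with bars for the quartiles of the list members in the A-/wt/wt libraries. Neuronal, glial and mitochondrial DNA lists lie to the right in all 3 sets, while the endothelial median is -0.03 in the A-/wt/wt libraries against 0.41 in the APP/PS1 libraries.

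Among the organelles, mitochondrial RNA moved most. The 13 genes of the mitochondrial DNA on the list all rose, with a median slope of 0.86 that stayed between 0.83 and 0.88 when any 1 library was left out. *mt-Co1*, the first subunit of cytochrome oxidase, was 15141, 15699, 20808, 25338, 27722, 40933 and 88760 CPM (0.76 ± 0.08, edgeR adjusted p = 8.20e-05). Mitochondrial DNA gave 5.10, 5.77, 6.95, 9.93, 11.7, 16.0 and 24.5% of all counts, in the order of the score. This share followed the score with Pearson's r = 0.976 and Spearman's rho = 1 (exact permutation p = 0.000198 and 0.000397, adjusted over 5 relations 0.000992 and 0.00198), and without mice 223 and 236 r was 0.933. The share of counts in the 50 most counted genes went from 20.9% in mouse 245 to 40.8% in mouse 223 (r = 0.984, exact permutation adjusted p = 0.000992, rho = 0.964, adjusted p = 0.00463, and r = 0.924 without mice 223 and 236). The TMM factor went the other way (r = -0.972, exact permutation adjusted p = 0.000992, rho = -0.964, adjusted p = 0.00463, and r = -0.866 without these mice). Total counts had r = -0.208 and rho = 0.0714 (exact permutation p = 0.658 and 0.906), and genes detected r = 0.444 and rho = 0.214 (exact permutation p = 0.341 and 0.662), with r = 0.0784 without mouse 245. All 5 measures come from the same libraries as the score, and mitochondrial genes enter the first 3 of these. The score is itself scaled by the TMM factor, so that part of the relation with this factor is built in. The permutation p-values do not allow for this.

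Nuclear genes of the respiratory chain rose by complex to unequal extents. Of the complex IV subunits 9 of 11 rose (median slope 0.67), of complex I 24 of 37 (0.36), of ATP synthase 10 of 14 (0.36), of complex III 5 of 9 (0.22) and of complex II 1 of 4 (0.11). Without mouse 223 the medians of complexes IV, I, ATP synthase and III were 0.84, 0.58, 0.56 and 0.46. Leaving out mouse 242 left 10 complex I and 5 ATP synthase genes rising, and leaving out mouse 223 gave 34 and 14, with 8 for complex III and 4 for complex II. Complex I also had 14 rising genes without mouse 245 and 16 without mouse 236, and ATP synthase 6 without either. *Cox6a1*, a small subunit of cytochrome oxidase, was 165, 198, 226, 404, 615, 921 and 1139 CPM (0.92 ± 0.10, edgeR adjusted p = 0.00016) and rose at every step. *Cox4i1* went from 236 to 1032 CPM (0.75 ± 0.10). *Atp5b*, the catalytic subunit of ATP synthase, went from 353 to 648 CPM (0.30 ± 0.06). Mitochondrial ribosomal proteins rose in 3 of 77 genes (0.10) and tricarboxylic acid cycle enzymes in 3 of 13 (0.13), beside 15.9% of all genes. Without mouse 223 these counts were 36 and 6, and without mouse 242 or mouse 245 they were 1 and 1.

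Cytoplasmic ribosomal protein genes rose in 32 of 78 cases and 1 fell (median slope 0.30), but not along the whole score. *Rplp1*, a stalk protein of the large subunit, was 1130, 1014, 1193, 1925, 2063, 2857 and 1992 CPM (0.39 ± 0.12, edgeR adjusted p = 0.034), with its peak in mouse 236. It did not pass without mice 236, 242, 243 or 245 (edgeR adjusted p = 0.0768, 0.129, 0.0648 and 0.112). *Rpl38* had the same course, with 443 CPM in mouse 236 and 348 CPM in mouse 223. The mean of the list was 8.18, 8.02, 8.24, 8.81, 8.94, 9.27 and 8.70 log2 CPM. Without mouse 223, 75 ribosomal genes rose, and without mice 242, 245, 236 and 243, 7, 10, 13 and 15 did. *Rps10*, the gene that fell, was low throughout (2.16 to 7.13 CPM) and overlaps other annotated genes. Its call was kept without mouse 224 and lost without any of the other 6 libraries (edgeR adjusted p of 0.0501 to 0.271).

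Mouse 223 departed from the other 6 libraries in a patterned way, as measured by a line extended beyond their scores. Set against the line through the other 6, its pan-neuronal genes (median deviation -0.06 log2 units), synaptic vesicle proteins (-0.06) and mitochondrial DNA genes (0.19) lay near the line. Its ribosomal (-1.15), pan-myeloid (-1.15), proteasome (-0.95), complex I (-0.93), astrocyte (-0.89), complex IV (-0.87) and lysosomal hydrolase genes (-0.81) lay below it. Chromatin regulators (1.02), postsynaptic density proteins (0.74), endothelial markers (0.65) and active zone proteins (0.56) lay above it. Chromatin regulators had a median slope of -0.17 with 1 of 19 falling, and without mouse 223 the median was -0.45 with 15 falling. *Chd9*, a chromatin remodeller, was 149, 140, 125, 83.5, 77.6, 63.3 and 80.4 CPM (-0.33 ± 0.09, edgeR adjusted p = 0.0222, and 0.0869 and 0.0521 without mice 242 and 245). Spliceosome and hnRNP genes fell in 8 of 22 cases (-0.11), in 5 without mouse 223 and in 3 without mouse 242.

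Transcript length went with the departure. Coding genes with less than 1 kb of summed exons (n = 298) had centred median levels of -0.25, -0.37, -0.26, 0.18, 0.25, 0.61 and -0.09 log2 CPM in the order of the score. Coding genes with more than 8 kb (n = 2624) had 0.16, 0.10, 0.09, -0.13, -0.13, -0.20 and 0.14. Short genes were thus highest and long genes lowest in mouse 236, with mouse 223 back near the 3 lowest libraries of the score for long genes. Among genes within 1 log2 unit between cortex and CD11b+ libraries, the 132 genes under 1 kb ran from -0.45 in mouse 245 to 0.64 in mouse 236 and were at 0.044 in mouse 223. The 1327 genes over 8 kb were again lowest in mouse 236, at -0.26, but mouse 223, at 0.038, was there below the 3 lowest libraries of the score, at 0.12 to 0.21. The part of transcript length in the slopes of ribosomal, respiratory chain and chromatin genes was not tested.

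**Figure D5:**
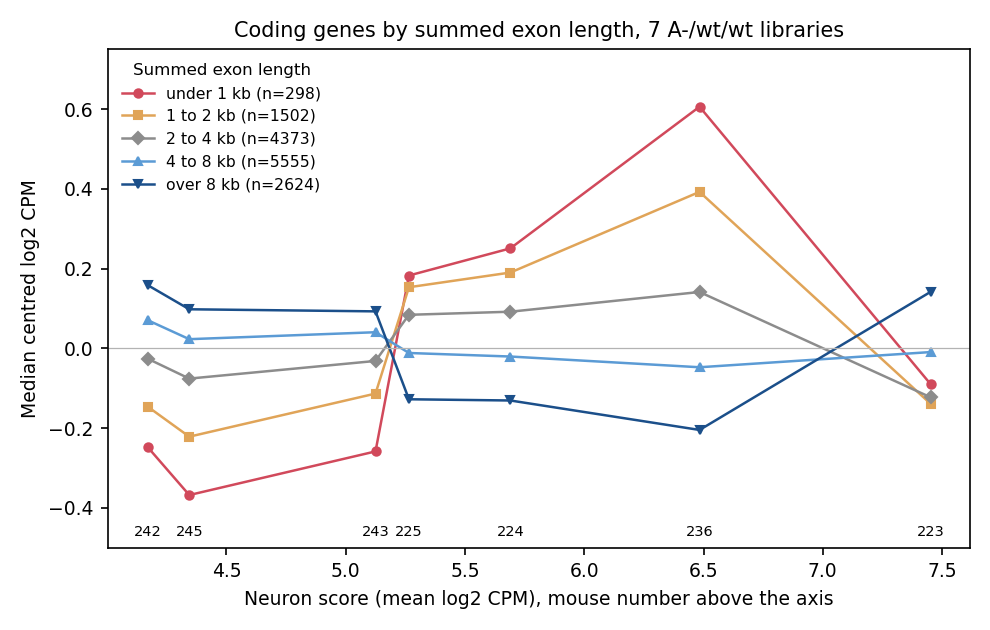
Median log2 CPM of coding genes, centred on each gene's mean over the 7 libraries (y axis), by class of summed exon length in kb and by library. Genes under 1 kb lie between -0.37 and 0.61 and are highest in mouse 236, and genes over 8 kb lie between -0.20 and 0.16 and are lowest there.

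Of 9 nuclear-retained long noncoding RNAs 5 rose and 1 fell, with a median slope of 0.51. Leaving out any 1 library kept this median between 0.39 and 0.69. *Malat1* was the member that fell (slope -0.30 ± 0.07, edgeR adjusted p = 0.0155). It was at 743 CPM in mouse 242, 972 CPM in mouse 245 and 469 CPM in mouse 223. *Rian*, an imprinted noncoding RNA of neurons, was among those that rose, from 31.0 to 292 CPM (1.01 ± 0.07). *Neat1* had a slope of -0.27 ± 0.11 (edgeR adjusted p = 0.0913, and 0.00946 without mouse 224). Lysosomal hydrolases fell in 3 of 20 genes (median slope -0.19), and lysosomal membrane proteins in 3 of 11 (-0.14), beside 9.04% of all genes. Proteasome subunits (0.07), vacuolar ATPase subunits (0.07) and peroxisomal proteins (-0.02) rose in 2 genes each, of 38, 19 and 16, beside 15.9% of all genes. Without mouse 223 these counts were 23, 8 and 1, beside 2590 rising genes in all, and the median of lysosomal hydrolases turned to 0.031. Of these hydrolases 7 fell without mouse 236 and none without mouse 242. The ferritin heavy chain *Fth1* was 5387, 5226, 6803, 8793, 9797, 17739 and 12686 CPM (0.52 ± 0.11).

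Lists from the pathway of the edited enzyme and from lipid metabolism are given beside the 15.9% of all genes that rose and the 9.04% that fell. Of 14 phospholipase C isoforms 3 rose and 3 fell (median slope 0.06), and 1 fell without mouse 242. *Plch2*, a neuronal isoform, went from 7.35 to 49.5 CPM (0.88 ± 0.06), and *Plcb2*, an isoform of blood cells, from 169 to 66.2 CPM (-0.42 ± 0.07). Of 29 genes of calcium release, entry and calmodulin kinases 8 rose and 1 fell (6 fell without mouse 223), among those that rose *Itpka*, an inositol trisphosphate kinase, from 3.65 CPM in mouse 242 to 44.8 CPM in mouse 223 (1.23 ± 0.10). Of 30 genes of fatty acid synthesis, binding and oxidation 14 rose and none fell (0.19), with 3 falling without mouse 223, and of 19 cholesterol synthesis enzymes 7 rose (0.22), with 3 rising without mouse 242. *Fabp3*, a fatty acid binding protein, went from 1.74 CPM in mouse 242 to 12.3 CPM in mouse 236 (0.76 ± 0.16).

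The slopes were then measured in the 8 APP/PS1 libraries, which took no part in choosing them. The score ran from 5.23 to 6.20 in A+/wt/wt and from 3.01 to 6.50 in A+/ki/ki mice, and slopes were fitted within genotype. Of 17031 genes 4164 rose (24.4%) and 2807 fell (16.5%). Of the 2636 rising genes of the A-/wt/wt libraries 2393 rose here too, which is 90.8% of that list and 57.5% of the APP/PS1 list, and of the 1500 falling genes 958 fell (63.9% and 34.1%). The slope had the same sign for 99.0% of the rising and 95.8% of the falling genes that were tested in both, and 49.2% of all genes had a positive slope. The breadth of the APP/PS1 calls leaned on A+/ki/ki mouse 335, the one with a score of 6.50. Without it 1851 genes rose and 76 fell (11.5% in sum), 1235 and 36 of them shared, and the signs were alike for 96.7% and 93.8%.

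Lists of neurons, glia and mitochondrial DNA rose in both sets. The pan-neuronal median was 0.98 in the APP/PS1 libraries (18 of 18 rose) and 0.95 without mouse 335 (15 rose), the astrocyte median 0.77, the oligodendrocyte median 0.84 and the mitochondrial DNA median 0.86. *Cplx2* had a slope of 0.97 ± 0.04 there, *Kif5a* 0.91 ± 0.07, *Ndrg4* 0.91 ± 0.04 and *Arc* 0.96 ± 0.20. *Mbp* was steeper here by value, with 1.02 ± 0.10. Homeostatic genes had a median of -0.23 with 12 falling, of which none was called without mouse 335 (median -0.22).

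Other lists had different values. All 14 endothelial markers rose in the APP/PS1 libraries (median 0.41, and 0.82 with 13 rising without mouse 335), as did all 11 choroid plexus markers (1.12, and 1.68 with 10 rising), and *Ttr* had a slope of 1.39 ± 0.20. Immediate early genes fell in 12 of 20 cases (-0.39), none of them called without mouse 335 (-0.53). The difference of slopes itself was tested over the 15 female libraries. Of 17842 genes 3 passed (0.0168%, with 1665 at an unadjusted p under 0.05), all less steep in APP/PS1 mice, and no endothelial or choroid plexus marker was among them. Among them were *Tmem163*, a zinc transporter of synaptic vesicles (difference -1.04), and *Actr3b*, a subunit of an actin nucleator (-0.83), each with an edgeR adjusted p of 0.0235. *Actr3b* had a slope of 0.82 ± 0.10 in A-/wt/wt and 0.01 ± 0.05 in APP/PS1 libraries, and *Tmem163* 0.88 ± 0.13 and -0.12 ± 0.08. *Tmem163* and *Actr3b* were chosen after the values were seen. In simulated data this test recovered 63 of 200 differences of 0.5, so that a difference without a call is not shown to be absent. None of the 17842 genes passed without A+/ki/ki mice 335, 394 or 405 or A+/wt/wt mouse 367, 1 or 2 did without A-/wt/wt mice 225 or 243, 5 or 7 did without A-/wt/wt mouse 236 or A+/wt/wt mice 331, 375 or 380, and 159 did without mouse 223. Tag and transgene differ together between these sets and cannot be told apart. The knock-in was present only in the A+/ki/ki part of the APP/PS1 libraries.

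In the 7 male libraries the score was 3.33 to 3.93 in A-/wt/wt and 4.91 to 6.13 in A-/ki/ki mice, so that little of its range lay within a genotype. Of 16365 genes 88 were called within genotype (0.538%, with 1755 at an unadjusted p under 0.05). None was called when any 1 library other than A-/ki/ki mouse 104 was left out, and 697 were called without that mouse. Without genotype as a term 3711 genes were called (22.7%). The sign within genotype was the same for 90.3% of the rising and 65.2% of the falling genes. The pan-neuronal median was 0.81 and the mitochondrial DNA median 0.73, while the choroid plexus median was -0.66, the complex I median -0.02 and the ribosomal median -0.10. *Cplx2* (0.94, edgeR adjusted p = 0.0407) and *Nrgn*, a postsynaptic calmodulin-binding protein (0.91, edgeR adjusted p = 0.0431), were among the genes that passed.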

How the data were processed

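Whole-gene counts of 31 libraries were analysed. The authors trimmed reads (Trimmomatic 0.39), mapped them to GRCm38 (STAR 2.7.9a) and counted them per gene without regard to strand (featureCounts 2.12.0, per the labels), and deposited these raw counts. Overlapping genes can therefore not be separated. Deposited variance-stabilized tables were not used. Columns with no sample numbered 0. Each library is 1 mouse, and p-values measure the spread between mice.

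Genes that reached 10 counts in 3 or more libraries of a comparison were tested with edgeR 4.0.16 (R 4.3.3), TMM scaling and a prior count of 2 for log2 CPM, by two-sided quasi-likelihood tests of the slope on the score, with Benjamini-Hochberg adjustment over all genes (threshold 0.05). APP/PS1 and male fits had genotype as a term. The A+/wt/wt CD11b+ libraries behind the cortex ratio are also among the 8 APP/PS1 libraries, and none is among the 7 described. Relations of the score were tested by exact two-sided permutation. Alternatives used DESeq2 1.42.0, limma 3.58.1, other scalings, filters and scores, and 1 library left out at a time. The slope fit was tested on simulated data of the 7 libraries (16603 genes): of 200 genes with a slope of 0.5, 136 were recovered, and of 200 with 0.25, 0 were. In the male fit 0 of 200 with 0.5 were recovered. In the test of the difference of slopes over 15 libraries, 63 of 200 with a difference of 0.5 were.

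Named genes were the score genes, *Itgam*, *Plcg2*, the 10 steepest called genes in each direction, the 3 most abundant and the steepest members of each list, and the 10 genes of largest residual SD, with an average of 5 CPM or more for those picked by slope or residual. A few of them are not reported here. Members and lists were chosen with earlier results of these data known. Positions are those of Gencode on GRCm38.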

Additional observations from a re-analysis of the deposited data

Results flagged for a closer look

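Of 177 measures, lists and named genes examined over the 7 A-/wt/wt libraries, 22 had 1 library far outside the spread of the other 6 by Dixon's test (chance flags about 1 in 20 groups). That rate does not apply to genes named for their values. The genes of large residual SD were picked for such a spread, among them *Hba-a2*, *Hbb-bs*, *Hba-a1*, *Cygb* and *Gpr62*. Others, such as *Rps10*, were named for their slope. Lists and named genes also overlap, as the pan-myeloid list does with *C1qa*, so that flags are not independent. Mouse 245 had 18259 genes detected, against 23279 to 23722, and log2 CPM of -3.38 (no count) for *Cygb*, *Gpr62* and *Car8*, among 92 tested genes at 0 there that average at least 2 CPM elsewhere. Mouse 236 had 0.0955% of its counts from hemoglobin, a mean log2 CPM of 6.63 for erythroid genes against 0.30 to 2.83, and log2 CPM of 6.12 for *Hba-a2*, 9.02 for *Hbb-bs* and 8.79 for *Hba-a1*. It was low for endothelial markers (7.27, others 7.77 to 8.01) and for *Rgs5*, a pericyte gene (7.16).

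Mouse 223 was low in mean log2 CPM of pan-myeloid genes (8.60, others 9.29 to 9.65), endoplasmic reticulum chaperones (7.14, others 7.62 to 7.89) and lysosomal hydrolases (8.44, others 9.07 to 9.33). It was low in log2 CPM of *C1qa* (10.70), *Tlr2* (5.88) and *Rps10* (1.17), and high in *mt-Nd5* (14.23), *Kif5a* (14.79), *Kif1a* (11.86) and *Prox1* (4.38). Mouse 242 was low in *Adora2a* (2.34).

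Slopes that differed between the APP/PS1 and the A-/wt/wt libraries in the test of the difference itself included those of *Tmem163* (-1.04) and *Actr3b* (-0.83).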

How the results depend on the processing

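No paired analysis was possible because the groups compared share fewer than 2 mouse numbers. The rising and falling counts of the A-/wt/wt libraries (2636 and 1500) became 6917 and 83 with the microglial scaling, by its construction, and stayed within 1.5 times under the other scalings, filters, tests and scores. Of these, the limit to genes averaging 5 CPM or more and the count without mitochondrial DNA genes were chosen after seeing the data. Leaving out 1 library gave 2000 to 2723 and 749 (without mouse 242) to 2243 (without mouse 223). These were in part other genes. Of the main calls, 1833 rising (69.5%) and 979 falling (65.3%) were kept without mouse 223. Without mouse 242, 1975 (74.9%) and 701 (46.7%) were kept. The 88 calls in male libraries became 255 without a filter, 462 with the Wald test of DESeq2 and 3711 without the genotype term, and 0 to 697 with 1 library left out. The 3 slopes that differed between sets became 88 without a filter and 229 with the Wald test, and 0 to 159 with 1 library left out. The APP/PS1 calls ranged from 1927 (without mouse 335) to 7157, and the tissue calls from 13628 to 14553. The relation of the score with genes detected was r = -0.72 when at least 10 counts were asked for (exact permutation adjusted p = 0.0826), and with total counts r was -0.37 to 0.30 with 1 library left out.

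The slope changed sign with the microglial scaling for *Itgam* (0.13), *Plcg2* (0.0071), *Gm24270* (0.049), *Trf* (0.12), *Flt1* (0.22), *Rgs5* (0.17), *Csf1r* (0.016), *C1qa* (0.071), *Ctss* (0.12), *Tlr2* (0.0075) and *Cd14* (0.14). With 1 library left out it ranged across 0 for *Itgam* (-0.18 to 0.070), *Capn11* (-1.60 to 0.070), *Igkc* (-0.24 to 1.30), *Gm24270* (-0.71 to 0.21), *Mpo* (-0.25 to 1.36), *Adora2a* (-0.011 to 0.094), *Trf* (-0.19 to 0.016), *Flt1* (-0.44 to 0.053), *C1qa* (-0.29 to 0.12), *Ctss* (-0.23 to 0.14), *Cd14* (-0.23 to 0.25), *Apoe* (-0.067 to 0.26) and *S100a9* (-0.29 to 0.76). Except for the shift built into the microglial scaling, the cause was not tested. At this depth and n, simulated slopes of 0.25 were not recovered, so that a shallow slope without a call is not shown to be absent.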

Other observations

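Lists not described so far are given beside the 15.9% of all genes that rose and the 9.04% that fell. Interferon response genes had 0 of 16 called (median slope -0.12), and 2 of 16 chemokines and cytokines fell (-0.11). Without mouse 223 these medians turned to 0.022 and 0.13. Of 11 border macrophage markers 3 fell (-0.14), and without mouse 223, 1 fell, 2 rose and the median turned to 0.12. Monocyte markers had 1 of 8 rising, and the 7 tested markers of T, B and NK cells and the 8 ependymal markers had none.

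Glycolytic enzymes had 4 of 15 rising and 1 falling (0.13), with 7 rising without mouse 223 and 2 without any of mice 225, 236, 242, 243 and 245. Chaperonin and heat shock proteins had 2 of 18 rising (0.09), with 11 rising without mouse 223, 0 without mouse 242 and 1 without mice 236, 243 or 245. Of 12 endoplasmic reticulum chaperones 1 fell (-0.11), with a median of 0.033 without mouse 223. Cell cycle genes had 1 rising and 2 falling of 15, and cell stress and ferritin genes had 2 of 13 rising.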
